A study of Mus musculus with 40 samples.

Results

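Coenzyme Q synthesis genes encode the proteins that build ubiquinone, the lipid that carries electrons within the inner mitochondrial membrane. The set comprised 10 genes, Pdss1, Pdss2, Coq2, Coq3, Coq5, Coq6, Coq7, Coq9, Coq10a and Coq10b, chosen by name from the 53863 gene symbols of the count table. All 10 were present in the table, each on a single line, and all 10 passed the filter on low counts in every tissue. Messenger RNA was sequenced after 24 h in which adult wild-type mice of the C57BL/6 strain, fed standard diet and housed until then at 22 °C, stayed at 4 °C, called cold here, or at 30 °C, called thermoneutral. The tissues were brown fat (BAT), the inguinal (iWAT) and epididymal (eWAT) depots of white fat, and liver, each with 5 libraries per exposure, so that there were 8 groups and 40 libraries. No transgene, drug or deletion was named in the labels, and the ages and the mice behind each library were not given.

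Coenzyme Q has a long isoprenoid tail, made from products of the mevalonate pathway, and an aromatic head group that starts as 4-hydroxybenzoate. The tail is joined to the head in mitochondria, and a complex of COQ proteins then hydroxylates, decarboxylates and methylates the ring. The finished lipid accepts electrons from complexes I and II and from dehydrogenases of fatty acid, glycerol phosphate, proline and sulfide oxidation, and brown fat, rich in mitochondria, depends on this electron flow for heat production.

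Total counts ran from 46508261 to 86681722 per library. Ucp1, the uncoupling protein of brown fat, separated the exposures as labelled in BAT, with 12323 to 16867 CPM in cold libraries and 479 to 1125 CPM in thermoneutral libraries, and its range in iWAT was 57.4 to 866 CPM in the cold and 0.531 to 5.72 CPM at thermoneutrality. Summed hepatocyte markers stood at 168170 to 223530 CPM in cold liver and 172660 to 197790 CPM in thermoneutral liver, and summed adipocyte markers reached at least 13179 CPM in each adipose library. CPM are library-size-scaled read counts (counts-per-million unit), and means are given ± SD of 5 libraries. The deposited table had been joined from a table of 35 libraries and a separate table of the 5 thermoneutral liver libraries, so in liver the separate table and the exposure cannot be told apart. The same holds for the separate table and the tissue where thermoneutral liver is compared with other tissues. Differences in cold effect between BAT and liver share this limit. Cold liver library 3 had 21.9% of its counts in transcripts of the mitochondrial genome, against 6.21% to 8.60% in the other cold liver libraries. All values come from bulk tissue, in which fewer cells of a type and less RNA per cell cannot be told apart.

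The upstream sequences of 3 members are shown because Coq10b passed the test in 3 tissues while its paralogue Coq10a passed in none, a difference between genes that was not tested, and because Pdss1 had the largest fold change of the set in BAT. They are the 250 bases before the RefSeq start on build GRCm38.p6, read 5′ to 3′ on the strand of the gene, and capitals mark matches to a cAMP response element core (TGACG or its complement CGTCA) or an E-box (CACGTG).
Coq10b upstream, chr1:55052520-55052769, plus strand: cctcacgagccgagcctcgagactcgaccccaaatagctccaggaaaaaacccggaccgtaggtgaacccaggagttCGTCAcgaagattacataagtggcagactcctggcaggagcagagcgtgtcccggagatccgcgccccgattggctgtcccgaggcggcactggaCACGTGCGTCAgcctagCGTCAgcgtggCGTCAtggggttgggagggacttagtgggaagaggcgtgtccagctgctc
Coq10a upstream, chr10:128368981-128369230, minus strand: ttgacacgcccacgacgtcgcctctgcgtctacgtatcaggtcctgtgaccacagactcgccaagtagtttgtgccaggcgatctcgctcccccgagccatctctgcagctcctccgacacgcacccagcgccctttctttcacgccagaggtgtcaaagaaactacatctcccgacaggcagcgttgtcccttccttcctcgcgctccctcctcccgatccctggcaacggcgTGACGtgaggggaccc
Pdss1 upstream, chr2:22895272-22895521, plus strand: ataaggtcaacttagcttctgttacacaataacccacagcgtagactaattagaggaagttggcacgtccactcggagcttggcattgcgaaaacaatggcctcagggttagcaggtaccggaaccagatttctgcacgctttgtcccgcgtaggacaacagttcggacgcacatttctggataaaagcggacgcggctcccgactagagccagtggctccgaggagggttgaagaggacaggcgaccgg

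Of 9 members with an upstream entry (11 entries in all), 4 held TGACG or CGTCA, namely Coq10b, Coq10a, Coq2 and Coq9. On exact matches on both strands, 17.8% of all 32851 upstream entries of the same length held these letters. Coq10b held 4 copies, with first bases at -173, -72, -61 and -50 from the start, and 0.137% of all entries held at least that many. This cut was set at the count of Coq10b itself, a gene shown for its cold result. The core contains a CG pair, and the Coq10b entry had 21 CG pairs and 62% G or C letters. The median of all entries was 52.4% G or C, and the share was not adjusted for this. The E-box of Coq10b began at -78 and ended directly before the core at -72, and 6.02% of all entries held an E-box of these letters. Pdss2 held 1 match to the ETS letters CCGGAAG, at -118, which 6.91% of all entries also held. Upstream of Coq10a 1 core stood at -16, Coq2 had 1 at -17, and Coq9 had 2 at -52 and -45. No member entry matched the full response element TGACGTCA, the NRF1 core GCGCATGCG or the ERR element TCAAGGTCA, letters present in 1.55%, 1.45% and 0.387% of all entries. Pdss1, Coq3, Coq6 and Coq7 held none of the 6 motifs, and Coq5 had no entry. The short core is contained in the full element. A match describes letters and not a binding site, and the lack of one says only that the letters are not in the window.

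In BAT 6 of the 10 genes rose in the cold and 2 fell, so that the response was divided within the set. The tail synthase subunit gene Pdss1, the methyltransferase gene Coq3 and Coq10b rose 4.17-fold, 2.51-fold and 3.07-fold, Pdss2, Coq5 and Coq7 rose 1.21-fold to 1.45-fold, and Coq6 and Coq2 fell by 0.49 and 0.25 on the log2 scale. Of all 15288 genes tested in BAT 60.2% passed the threshold of 0.05 on the p-value adjusted after Benjamini and Hochberg, 30.2% higher and 30.0% lower in the cold. With most genes of the tissue called, a call in BAT sets a member little apart from other genes. The median log2 fold change of cold over thermoneutral was 0.32 over the members and -0.04 over all genes tested. In 7 members the ranges of cold and thermoneutral libraries did not overlap, which was so for 46.4% of all genes tested.

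**Figure D1:**
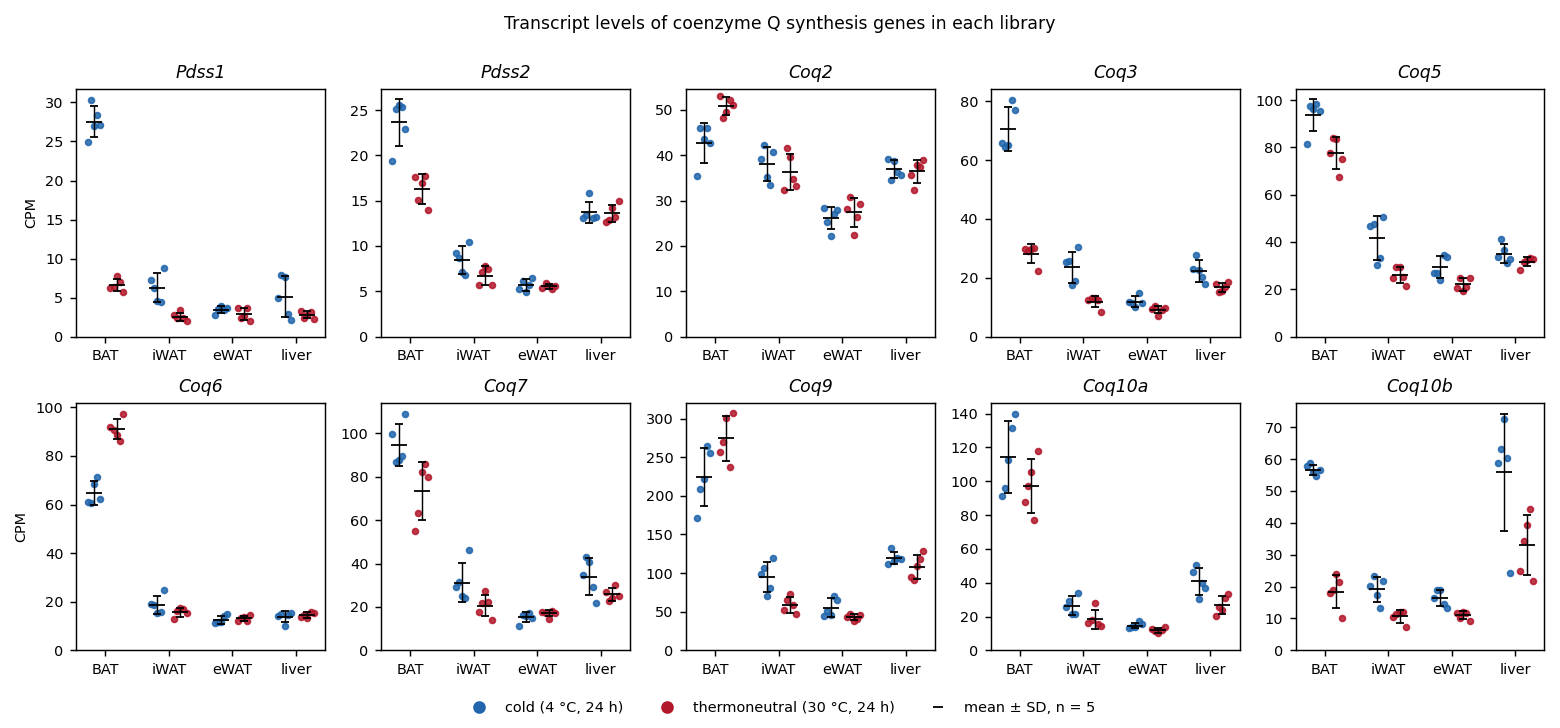
Levels of the 10 genes in CPM (linear axis from 0) in each of 40 libraries, by tissue; points are libraries, cold left of thermoneutral, and black bars are the mean ± SD of 5. In BAT the cold libraries of Pdss1, at 25.0 to 30.3 CPM, lie above those of every other group, while those of Coq6 and Coq2 lie below the thermoneutral BAT libraries.

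Pdss1 and Pdss2 encode the subunits of the mitochondrial polyprenyl diphosphate synthase, which makes the isoprenoid tail. Pdss1 (chr2:22895522-22940266, GRCm38) had 25.0, 30.3, 27.0, 28.4 and 27.1 CPM in cold BAT libraries 1 to 5, against 6.25, 6.34, 7.74, 7.01 and 5.66 CPM in thermoneutral BAT libraries 1 to 5. The lowest cold library was above the highest thermoneutral library, and the log2 fold change was 2.06 ± 0.10 (SE; edgeR, adjusted p = 3.15e-08). Its partner Pdss2 had 19.4, 25.1, 25.5, 25.3 and 22.9 CPM in the cold and 17.6, 15.1, 17.0, 17.8 and 13.97 CPM at thermoneutrality. These ranges also stood apart, with cold library 1 closest to the thermoneutral libraries, and the log2 fold change of 0.54 ± 0.10 (adjusted p = 0.000602) was smaller than that of Pdss1. A difference between the 2 subunit genes was not tested.

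Coq2 encodes the prenyltransferase that joins tail and head group. It had 35.4, 46.0, 43.5, 46.1 and 42.6 CPM in cold BAT and 53.0, 48.2, 49.5, 52.3 and 51.2 CPM in thermoneutral BAT. Every cold library was below every thermoneutral one, and Coq2 fell by 0.25 on the log2 scale (SE 0.08, adjusted p = 0.0145). Coq6, a flavin monooxygenase that hydroxylates the ring, had 61.2, 60.5, 68.5, 71.5 and 62.1 CPM in cold BAT and 92.1, 90.8, 88.8, 86.0 and 97.5 CPM in thermoneutral BAT. Its ranges were also separate, and it fell by 0.49 on the log2 scale (SE 0.07, adjusted p = 7.39e-05).

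Coq3, the O-methyltransferase of the ring, had 65.8, 64.5, 65.3, 80.4 and 77.1 CPM in cold BAT, against 29.7, 29.0, 29.6, 30.2 and 22.4 CPM in thermoneutral BAT. Cold libraries 4 and 5 were the highest, all 5 lay above every thermoneutral library, and the log2 fold change was 1.32 ± 0.10 (adjusted p = 7.22e-07). Coq5, the C-methyltransferase, had 81.5, 97.3, 96.1, 98.3 and 95.2 CPM in the cold and 77.5, 83.9, 83.8, 67.7 and 75.2 CPM at thermoneutrality. Cold library 1 lay within the thermoneutral range and the other 4 above it, with a log2 fold change of 0.27 ± 0.08 (adjusted p = 0.0113). In the model of all 40 libraries, in which the tissues share 1 estimate of spread, the adjusted p of Coq5 in BAT was 0.117.

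Coq7, the hydroxylase of the penultimate step, had 99.6, 86.8, 87.5, 89.5 and 109 CPM in cold BAT and 55.1, 63.4, 82.1, 86.0 and 79.9 CPM in thermoneutral BAT. The ranges stood apart by less than 1 CPM, since thermoneutral library 4 came close to cold library 2, and the log2 fold change was 0.37 ± 0.12 (adjusted p = 0.024). The call was lost without thermoneutral library 2 (adjusted p = 0.0593) and in the model of all 40 libraries (adjusted p = 0.119). Coq9, a lipid-binding partner that presents substrate to Coq7, had 172, 208, 222, 265 and 256 CPM in the cold and 257, 270, 301, 238 and 307 CPM at thermoneutrality. Its ranges overlapped and the log2 difference of -0.29 ± 0.12 did not pass (adjusted p = 0.057), though it passed without thermoneutral library 4 (adjusted p = 0.0393) or without cold library 4 (adjusted p = 0.031). Under scaling by library totals it also passed (-0.31, adjusted p = 0.01375).

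Coq10a and Coq10b encode START-domain proteins that bind coenzyme Q and are needed for its function in respiration, as known from their yeast counterpart. Coq10b had 57.8, 58.6, 55.8, 54.6 and 56.6 CPM in cold BAT and 17.9, 19.0, 23.8, 21.4 and 10.03 CPM in thermoneutral BAT. The 5 cold libraries lay close together and above the whole thermoneutral range, and the log2 fold change was 1.62 ± 0.18 (adjusted p = 1.93e-05). Coq10a had 91.4, 96.2, 113, 132 and 140 CPM in the cold, against 87.7, 97.4, 106, 76.9 and 118 CPM at thermoneutrality, and the groups overlapped (log2 0.24 ± 0.14, adjusted p = 0.175). Counts of Coq10b are less certain, because a processed pseudogene, Gm17971, overlaps it on the same strand by 806 bases of the annotation and had 492 counts over the 40 libraries.

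Reads were not assigned to a strand by the library kit. The annotated spans of Coq6, Pdss1 and Coq9 overlap opposite-strand genes (Fam161b by 177 bases, Abi1 by 194 and Ciapin1 by 38). These neighbours had 6646, 109355 and 75835 counts over the 40 libraries, and part of the members' counts may belong to them. Overlap of exons was not examined. Coq10b also overlaps E330011M16Rik on the opposite strand by 343 bases (866 counts over the 40 libraries) and Coq2 overlaps the antisense gene Gm15777 by 4282 bases (19 counts), while pseudogenes opposite Pdss1, Pdss2 and Coq5 had at most 70 counts each. On its own strand Pdss2 overlaps 3 annotated genes that had 21 to 148 counts. Skeletal muscle markers varied between BAT libraries, from 17.5 to 4952 summed CPM in the cold and from 208 to 6198 CPM at thermoneutrality. None of the 12 muscle markers was called in BAT, and with them as a covariate 8 members were called, as without. Over all genes that fit called 4609 higher and 4546 lower, against 4614 and 4586 without the covariate. Library ranges of brown adipocyte markers were 17088 to 23055 summed CPM in cold BAT and 3024 to 3600 CPM in thermoneutral BAT, a sum led by Ucp1. Adipocyte markers were 16806 to 20292 summed CPM in cold BAT and 13179 to 14370 CPM in thermoneutral BAT, with 2 of 10 called higher and 6 lower. Endothelial markers were 1050 to 1323 summed CPM in the cold and 908 to 1049 CPM at thermoneutrality, with 5 of 8 called higher and 3 lower, and 5 of 11 lymphocyte markers tested were called lower. The part of these cell types in the members' results was not tested.

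**Figure D2:**
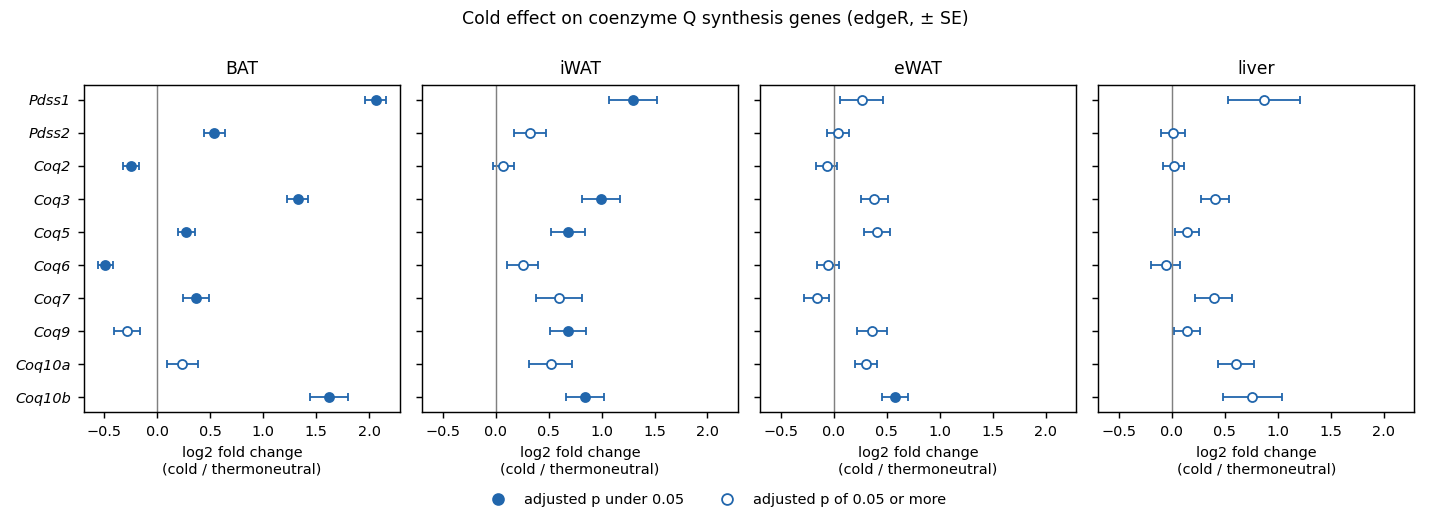
Log2 fold change of cold over thermoneutral (x axis) for each gene in BAT, iWAT, eWAT and liver, with bars of ± 1 SE from edgeR; filled points passed an adjusted p of 0.05. In BAT 8 points are filled and 2 of them lie left of 0, in iWAT 5, in eWAT 1 and in liver 0.

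In iWAT 5 of 10 genes rose and none fell. The largest estimates were again in Pdss1, Coq3 and Coq10b, with 2.46-fold, 1.99-fold and 1.79-fold, followed by Coq9 with 1.61-fold and Coq5 with 1.60-fold. Of all 16771 genes tested in iWAT 11.5% were called, 7.20% higher and 4.29% lower. All 10 members had a positive log2 fold change, with a median of 0.64 against -0.05 over all genes, although that of Coq2 turned to -0.05 when libraries were scaled by their totals only. Under that scaling the median over all genes was -0.16 and 46.1% of calls were higher, against 62.7% in the TMM scaling used here. Library ranges were separate in 4 members, compared with 11.3% of all genes tested.

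Pdss1 had 7.31, 6.28, 4.596, 4.40 and 8.82 CPM in cold iWAT and 2.73, 2.42, 3.34, 2.32 and 1.95 CPM in thermoneutral iWAT (log2 1.299 ± 0.23, adjusted p = 0.00888). Coq3 had 25.4, 25.6, 17.6, 19.0 and 30.5 CPM in the cold and 12.3, 13.1, 13.0, 12.5 and 8.39 CPM at thermoneutrality (0.99 ± 0.18, adjusted p = 0.00909). In both genes cold libraries 3 and 4 were the lowest of their group and still above every thermoneutral library. Coq10b, with 20.1, 23.3, 17.3, 13.4 and 21.7 CPM in the cold and 10.5, 11.5, 12.2, 12.0 and 7.23 CPM at thermoneutrality, also showed no overlap (0.84 ± 0.18, adjusted p = 0.018).

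Coq5 ranged from 30.4 to 50.5 CPM in cold iWAT and from 21.4 to 29.6 CPM in thermoneutral iWAT (0.68 ± 0.16, adjusted p = 0.0246). Coq9 had 98.5, 106, 69.9, 80.9 and 120 CPM in the cold and 52.6, 65.4, 72.7, 58.1 and 46.7 CPM at thermoneutrality, so that cold library 3 was below thermoneutral library 3 (0.69 ± 0.17, adjusted p = 0.0286). Coq7 was measured at 31.2 ± 8.89 CPM in the cold and 20.6 ± 4.98 CPM at thermoneutrality and did not pass (0.60 ± 0.21, adjusted p = 0.0977). Coq6 (0.25 ± 0.14, adjusted p = 0.261), Pdss2 (0.33 ± 0.15, adjusted p = 0.186) and Coq2 (0.07 ± 0.10, adjusted p = 0.653) did not pass either. Under alternatives Coq7 was called by DESeq2 (adjusted p = 0.0487) and with the muscle markers as a covariate (adjusted p = 0.0238). In the model of all 40 libraries Coq7 (adjusted p = 0.0108) and Pdss2 (adjusted p = 0.0255) were called. Coq5 and Coq9 lost their call without cold library 1, 2 or 5 or without thermoneutral library 1, and Coq9 also without thermoneutral library 2, with adjusted p between 0.0537 and 0.0701 in these fits, and 3 or 4 members were then called.

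In iWAT Coq10a was highest, within each exposure, in the library of highest muscle markers. The same held for Pdss1, Pdss2, Coq5, Coq6, Coq7 and Coq9, and not in both exposures for Coq2, Coq3 and Coq10b. Coq10a had 25.7, 29.4, 21.6, 21.3 and 34.2 CPM in the cold and 15.9, 17.9, 28.2, 15.6 and 14.5 CPM at thermoneutrality. Cold library 2, the next highest in Coq10a, had 7.99 summed CPM of muscle markers. Thermoneutral library 3, the highest of its group, also had 13802 summed CPM of 12 skeletal muscle markers, against 3.95 to 109 CPM in the other thermoneutral libraries, and cold library 5, the highest of the cold group, had 3017 CPM against 2.53 to 1204 CPM in the other cold libraries. Coq10a was not called over all libraries (0.52 ± 0.20, adjusted p = 0.122), was called without thermoneutral library 3 (0.73, adjusted p = 0.0268), and was called with the muscle markers as a covariate (0.58, adjusted p = 0.031). In that covariate fit 7 members were called. Over all genes it called 1439 higher and 856 lower, against 1207 and 719 in the main fit. Without thermoneutral library 3 and cold library 5, a choice made after the data had been seen, 3 members were called, namely Pdss1, Coq3 and Coq10a. That fit called 536 of all genes higher and 183 lower.

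Adipocyte markers moved with the iWAT results, since their summed level was 27336 to 42110 CPM in the cold and 15000 to 24601 CPM at thermoneutrality and 4 of 10 were called higher. Brown adipocyte markers were 208 to 1509 summed CPM in cold iWAT and 125 to 191 CPM in thermoneutral iWAT. Within the cold group they were lowest in libraries 3 and 4, which also had the lowest cold levels of all 10 members. Lymphocyte markers ran from 3.91 to 446 summed CPM in the cold and from 70.2 to 945 CPM at thermoneutrality. With the lymphocyte markers as a covariate 2 members were called, Pdss1 and Coq3. Over all genes that fit called 761 higher and 1006 lower, against 1207 and 719 in the main fit. Coq5 (0.67), Coq9 (0.70) and Coq10b (0.73) then had adjusted p of 0.05165 to 0.05311 in edgeR. With the mean of the adipocyte markers as a covariate, a fit added after the data had been seen, no member was called in iWAT, Pdss1 had a log2 fold change of 0.88 (adjusted p = 0.236) and the call count over all genes was 63. The adipocyte sum of every cold library was above that of every thermoneutral library, so the markers and the exposure cannot be told apart.

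In eWAT only Coq10b passed among the 10 members, with 16.5, 18.9, 18.8, 14.5 and 13.3 CPM in the cold and 11.9, 10.2, 12.0, 11.8 and 9.14 CPM at thermoneutrality. All cold libraries lay above all thermoneutral libraries (0.58 ± 0.12, adjusted p = 0.0345). Of all 19123 genes tested 3.78% were called, 1.77% higher and 2.00% lower, and 7.50% had separate ranges. The call of Coq10b was lost in 9 of the 10 fits that left out 1 library, at adjusted p between 0.0519 and 0.0803, and kept without cold library 5. Of the other members Coq5, at 29.2 ± 4.68 CPM in the cold and 22.0 ± 2.61 CPM at thermoneutrality, came closest (0.41 ± 0.12, adjusted p = 0.098). Coq3 (0.38 ± 0.13), Coq9 (0.37 ± 0.14) and Coq10a (0.31 ± 0.10) had unadjusted p under 0.05 and adjusted p between 0.142 and 0.194. The Pdss1 estimate was 0.26 ± 0.20 (adjusted p = 0.565), and those of Pdss2, Coq2, Coq6 and Coq7 lay between -0.16 and 0.04. The median was 0.28 over the members and -0.05 over all genes. In the model of all 40 libraries 74.1% of eWAT calls were higher, against 47% here, and Coq5 was called (adjusted p = 0.0499) while Coq10b was not (adjusted p = 0.154). Adipocyte markers were 20250 to 30074 summed CPM in cold eWAT and 13599 to 22011 CPM in thermoneutral eWAT, with 3 of 10 called higher. Lymphocyte markers were 7.33 to 26.3 summed CPM in the cold and 23.5 to 61.3 CPM at thermoneutrality, all 12 with a negative log2 fold change, 9 of them at an unadjusted p under 0.05 and 1 called. The part of these markers in the value of Coq10b was not tested.

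In liver no member passed in edgeR, 5 had an unadjusted p under 0.05, and DESeq2 called 1 (Coq10a) and limma-voom called 0. Of all 14472 genes tested 1.66% were called, 1.01% higher and 0.650% lower, and 5.45% had separate ranges, which no member had. The median was 0.27 over the members and 0.01 over all genes, and the median of all genes moved to -0.16 under scaling by library totals. Of the liver calls 60.8% were higher, against 31.2% under library totals and 35.6% in the model of all 40 libraries, which called Pdss1, Coq10a and Coq10b among the members. Coq10a had 46.6, 50.7, 30.1, 39.8 and 36.7 CPM in cold liver and 20.4, 25.4, 23.8, 30.9 and 33.6 CPM in thermoneutral liver, with cold library 3 inside the thermoneutral range (0.61 ± 0.17, adjusted p = 0.0745).

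Cold liver was uneven in Coq10b, Pdss1 and Coq7. Coq10b had 58.9, 63.1, 72.7, 60.4 and 24.4 CPM in the cold and 25.0, 34.5, 39.2, 44.2 and 21.9 CPM at thermoneutrality (0.76 ± 0.27, adjusted p = 0.124). Pdss1 had 4.92, 7.87, 7.68, 2.90 and 2.15 CPM in the cold and 3.32, 2.37, 2.79, 3.12 and 2.27 CPM at thermoneutrality (0.87 ± 0.34, adjusted p = 0.141). Cold library 5 lay inside the thermoneutral range in Coq10b and below it in Pdss1, where cold library 4 lay inside. Coq7 had 34.8, 43.2, 40.6, 29.2 and 21.9 CPM in the cold and 26.8, 22.9, 24.2, 30.3 and 24.8 CPM at thermoneutrality (0.40 ± 0.17, adjusted p = 0.184), again with cold library 5 below every thermoneutral library.

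Without cold liver library 5 the fit called 5 members, all higher in the cold, namely Pdss1 (1.07 ± 0.28, adjusted p = 0.0276), Coq3 (0.48 ± 0.13, adjusted p = 0.0302), Coq7 (0.52 ± 0.14, adjusted p = 0.0303), Coq10a (0.64 ± 0.18, adjusted p = 0.0363) and Coq10b (0.95 ± 0.20, adjusted p = 0.00921). In that fit 2384 genes were called in all, against 240 with all 10 libraries. Without cold library 3, of high mitochondrial share, no member was called, and 3 genes were called in all. Coq9 (0.15 ± 0.12), Coq5 (0.14 ± 0.11), Coq2 (0.02 ± 0.10), Pdss2 (0.01 ± 0.11) and Coq6 (-0.06 ± 0.14) had adjusted p of 0.44 or more over all 10 libraries, and under library totals the estimates of Coq9, Coq5, Coq2 and Pdss2 turned negative (-0.02, -0.03, -0.16 and -0.17). Lymphocyte markers were 2.05 to 9.42 summed CPM in cold liver and 25.0 to 205 CPM in thermoneutral liver, and their part in the members' values was not tested.

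The cold effect itself was compared between tissues as an interaction in the model of all 40 libraries. Comparisons with liver use the thermoneutral libraries of the separate table. The rise of Pdss1 was larger in BAT than in eWAT (difference of log2 fold changes 1.75 ± 0.34, adjusted p = 0.000161) and than in liver (1.26 ± 0.34, adjusted p = 0.00497), while against iWAT the difference of 0.70 ± 0.33 did not pass (adjusted p = 0.153). Coq3 likewise differed from eWAT (0.89 ± 0.20, adjusted p = 0.000877) and liver (0.98 ± 0.20, adjusted p = 0.000293) and not from iWAT (0.27 ± 0.20, adjusted p = 0.406). Coq10b rose more in BAT than in eWAT (0.998 ± 0.30, adjusted p = 0.0129) and liver (0.93 ± 0.30, adjusted p = 0.0202), and the difference from iWAT was 0.72 ± 0.30 (adjusted p = 0.0944).

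Pdss2 rose more in BAT than in liver (0.59 ± 0.16, adjusted p = 0.00491) and than in eWAT (0.45 ± 0.16, adjusted p = 0.0349). For Coq6 and Coq9 the order was the other way. Coq6 fell in BAT and differed from iWAT by -0.81 ± 0.17 (adjusted p = 0.000646) and from eWAT by -0.49 ± 0.17 (adjusted p = 0.0324). Coq9 had a negative estimate in BAT and rose in iWAT, a difference of -1.04 ± 0.21 (adjusted p = 0.000412), and it differed from eWAT by -0.71 ± 0.21 (adjusted p = 0.011). Coq2 differed between BAT and iWAT by -0.39 ± 0.12 (adjusted p = 0.0257).

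By this test 3 members differed between BAT and iWAT, 6 between BAT and eWAT and 4 between BAT and liver, where 18.9%, 23.0% and 24.1% of all 20756 genes tested were called. Of all genes tested, those called with a larger effect in BAT and with a smaller one were 8.27% and 10.6% against iWAT, 11.5% each against eWAT, and 14.2% and 9.94% against liver. The share of calls that were positive between BAT and iWAT was 43.8%, and 63.0% under library totals. Between iWAT and eWAT no member was called in edgeR or DESeq2, 3 members (Pdss1, Coq3 and Coq7) had an unadjusted p under 0.05, and 0.159% of all genes were called, 0.116% positive and 0.0434% negative. The effects of BAT enter 3 of these comparisons, which therefore share libraries. Coq5, Coq7 and Coq10a were not called in any of the 4 differences over all libraries, although Coq5 between BAT and iWAT was called in 5 of the fits that left out 1 library (adjusted p = 0.0147 to 0.0389). Other differences were called under an alternative and not over all libraries by edgeR with TMM. Against iWAT these were Coq10b, by DESeq2 (adjusted p = 0.0482), under library totals (adjusted p = 0.0216) and without thermoneutral iWAT library 5 (adjusted p = 0.0463), and Pdss1 under library totals (adjusted p = 0.0449). Against liver it was Coq6, by DESeq2 (adjusted p = 0.0489) and without cold liver library 3 (adjusted p = 0.0178). The calls of Coq2 against iWAT and of Coq6 and Pdss2 against eWAT were lost under several alternatives, among them DESeq2 or scaling by library totals for Coq2 (adjusted p = 0.0609 and 0.229), and that of Coq10b against liver was lost without thermoneutral liver library 4 (adjusted p = 0.0508).

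**Figure D3:**
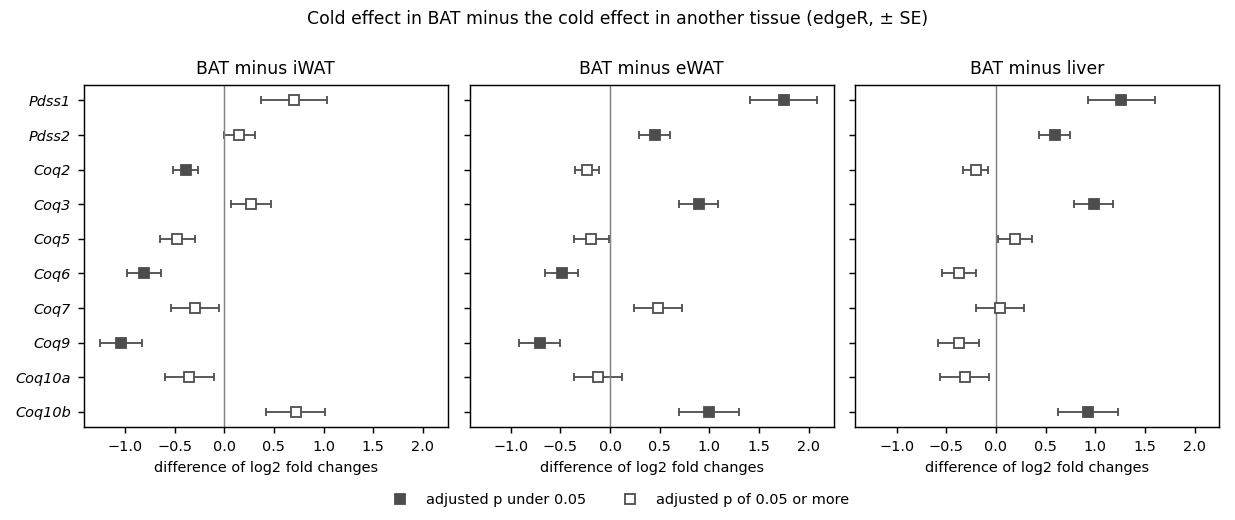
Cold effect in BAT minus the cold effect in iWAT, eWAT or liver, as a difference of log2 fold changes (x axis) with bars of ± 1 SE from edgeR; filled squares passed an adjusted p of 0.05. Pdss1, Coq3 and Coq10b lie right of 0 in all 3 panels, and Coq6 and Coq9 left of 0, with -0.81 and -1.04 against iWAT.

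At thermoneutrality all 10 genes were higher in BAT than in either white depot, in the TMM scaling. Against iWAT 47.3% of all 20756 genes tested were called, 22.6% higher and 24.7% lower in BAT, and against eWAT 61.9% were called, 23.5% higher and 38.4% lower. The largest differences from iWAT were in Coq6 (log2 2.57 ± 0.13), Coq10a (2.43 ± 0.18) and Coq9 (2.25 ± 0.15), and the smallest in Coq2 (0.52 ± 0.09, adjusted p = 9.63e-06), which turned to -0.30 under scaling by library totals. From eWAT the range was 0.77 ± 0.21 in Coq10b to 3.06 ± 0.19 in Coq10a, and Coq2 and Coq10b turned to -0.02 and -0.17 under library totals. Scaling by library totals moved the median log2 difference of all genes from iWAT to -0.90 (-0.08 under TMM) and from eWAT to -1.17 (-0.23 under TMM), and the share of calls higher in BAT to 9.80% and 8.43%, against 47.7% and 38.0%.

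In contrasts with liver the tissue and the separate table of its thermoneutral libraries cannot be told apart. BAT was higher than liver at thermoneutrality in 8 members, from Coq2 (0.45 ± 0.09) to Coq6 (2.62 ± 0.13), while Coq10b was lower in BAT than in liver (-0.87 ± 0.21, adjusted p = 0.000575) and Pdss2 did not pass (0.23 ± 0.11, adjusted p = 0.0686). Of all genes tested 63.4% were called in that contrast, 34.0% higher and 29.4% lower in BAT, and under library totals the median of all genes was 0.38 and 65.8% of calls were higher in BAT, against 53.6%. Liver exceeded iWAT in 7 members, most in Coq10b (1.68 ± 0.22), and 68.0% of all genes were called (31.5% higher and 36.4% lower in liver), 46.4% of the calls being higher in liver. Under library totals 8 members, all but Coq6 and Coq10b, changed direction in this contrast, in which the median of all genes was then -1.34 and 15.5% of calls were higher. Liver exceeded eWAT in 8 members with 75.8% of all genes called (31.3% higher and 44.5% lower in liver) and 41.3% of the calls being higher in liver, and under library totals 7 members changed direction, with a median of all genes of -1.60 and 12.3% of calls higher. Between iWAT and eWAT 5 members were higher in iWAT, the largest difference being that of Coq10a (0.63 ± 0.17, adjusted p = 0.00518), where 36.9% of all genes were called (12.7% higher and 24.2% lower in iWAT), and 2 members were called under library totals, where 22.4% of calls were higher in iWAT, against 34.5%. Thermoneutral iWAT library 3 was the highest of its group in Coq10a and in muscle markers. Without it 2 members were called, and Pdss2 (adjusted p = 0.152), Coq3 (adjusted p = 0.0859) and Coq9 (adjusted p = 0.0641) lost their call. Without thermoneutral iWAT library 5, 8 members were called.

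Over the 8 groups the summed level of the 10 genes was 813 ± 77.7 CPM in cold BAT and 734 ± 48.8 CPM in thermoneutral BAT. It was 309 ± 60.5 CPM in cold iWAT and 208 ± 32.3 CPM in thermoneutral iWAT, 191 ± 21.8 CPM in cold eWAT and 163 ± 11.4 CPM in thermoneutral eWAT, and 377 ± 40.3 CPM in cold liver and 309 ± 28.9 CPM in thermoneutral liver. The ranges of BAT lay above those of every other tissue, and within BAT the cold and thermoneutral ranges overlapped. Coq9 made up the largest part of the sum in BAT, with 225 ± 37.6 CPM in the cold and 275 ± 29.2 CPM at thermoneutrality.

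The order of groups differed between genes. The 2 BAT groups had the highest means of 9 genes. Their libraries lay above those of every other tissue in Coq5, Coq6, Coq7, Coq9 and Coq10a, whereas cold BAT overlapped with iWAT and liver in Coq2, thermoneutral BAT with cold iWAT and cold liver in Pdss1 and Coq3, and thermoneutral BAT with liver in Pdss2. Coq10b was the exception in its means, with 56.7 ± 1.58 CPM in cold BAT and 55.9 ± 18.4 CPM in cold liver, ranges that overlapped. For Coq10b thermoneutral liver (33.0 ± 9.41 CPM) came next, followed by cold iWAT (19.1 ± 3.90 CPM), thermoneutral BAT (18.4 ± 5.22 CPM) and cold eWAT (16.4 ± 2.50 CPM), neighbours that overlapped. Cold eWAT was separate from thermoneutral eWAT (9.14 to 11.99 CPM), which overlapped with thermoneutral iWAT (10.7 ± 2.04 CPM). Pdss1 separated cold BAT from thermoneutral BAT (6.60 ± 0.796 CPM), and the following neighbours in order, cold iWAT (6.28 ± 1.86 CPM), cold liver (5.10 ± 2.64 CPM) and cold eWAT (3.45 ± 0.437 CPM), each overlapped with the next. The ratio of highest to lowest group mean ran from 1.94 in Coq2, the most even member, to 10.8 in Pdss1 and 9.64 in Coq10a.

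Coq6 fell into 2 levels, with 64.8 ± 4.94 CPM in cold BAT and 91.0 ± 4.25 CPM in thermoneutral BAT and group means between 12.7 and 18.7 CPM in the other 6 groups, of which all neighbours overlapped. Pdss2 separated liver from white fat, at 13.7 ± 1.18 CPM in cold liver and 13.6 ± 0.945 CPM in thermoneutral liver and 8.45 ± 1.501 CPM or less in the 4 groups of the white depots. In Coq9 cold liver (120 ± 8.19 CPM) lay below the BAT groups without overlap.

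Per kb of annotated exon, so that genes can be compared with each other, Coq9 had the highest level in all 8 groups, from 14.1 ± 1.23 CPM per kb in thermoneutral eWAT to 89.9 ± 9.55 in thermoneutral BAT. Pdss1 and Pdss2 were the 2 lowest in every group, for example 6.48 and 3.96 CPM per kb in cold BAT and 1.55 and 2.73 CPM per kb in thermoneutral BAT, so that Pdss1 exceeded Pdss2 in cold BAT and not in thermoneutral BAT. These ranks at either end also held when the longest transcript was used as length. The Pdss1 level per kb in thermoneutral iWAT, 0.601, was the lowest of any gene and group. Of the paralogues, Coq10a had 44.5 and Coq10b 11.8 CPM per kb in cold BAT, and 37.8 and 3.83 CPM per kb in thermoneutral BAT.

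**Figure D4:**
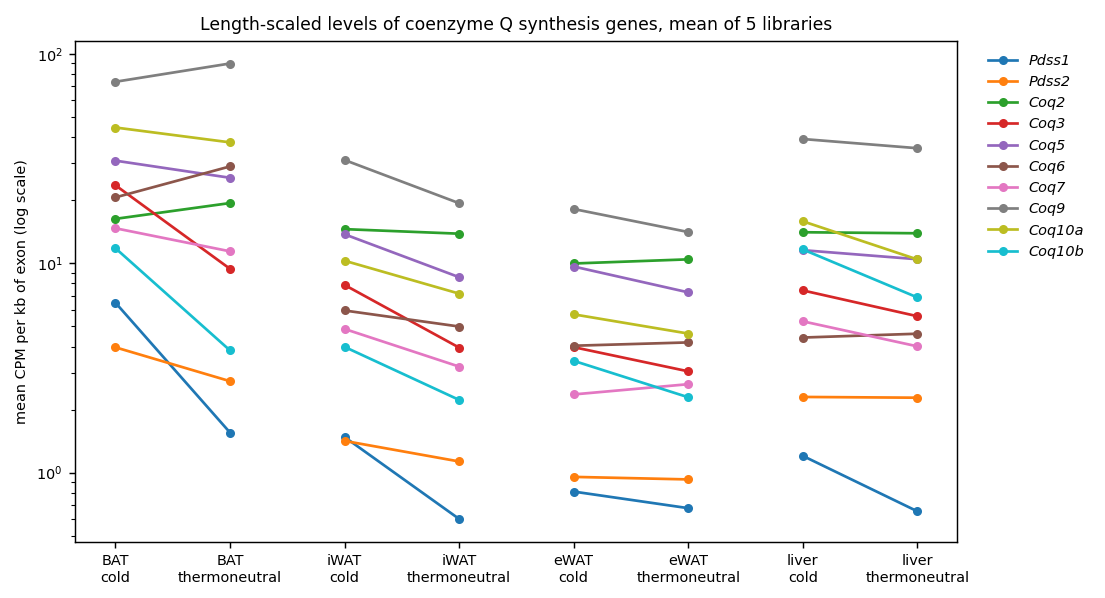
Mean level of each gene in CPM per kb of exon (log axis) in the 8 groups, cold left of thermoneutral within each tissue; each point is the mean of 5 libraries. Coq9 is the top line throughout, at 73.5 in cold BAT and 89.9 in thermoneutral BAT, and Pdss1 and Pdss2 are the bottom pair.

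For each member the genes of most similar pattern were taken as the 2 highest Pearson correlations of the 8 group means of log2 CPM, among 11020 genes. The points of each correlation are 8 group means that share tissues and libraries, so r is a description. Pdss1 was closest to Tmem161b (r = 0.9981) and Zfp91 (r = 0.9933), and Coq10b to Kpna1, an importin (r = 0.9975), and Osbpl9, a lipid transfer protein (r = 0.9901). Subunits and assembly factors of the respiratory chain were closest to Pdss2 (Ndufaf1, r = 0.9983), Coq6 (Ndufb8, r = 0.9898), Coq7 (Ndufv2, r = 0.9968) and Coq10a (Cox6b1, r = 0.9979, and Uqcrc2, r = 0.9972). Coq9 was closest to Timm21 (r = 0.9970) and Ndufv3 (r = 0.9965), Coq5 to the coactivator gene Ppargc1b (r = 0.9952) and Tob2, Coq3 to Mtch2 (r = 0.9895) and Tbrg4, and Coq2 to Wrap53 (r = 0.9816) and Pank4. The second genes of Pdss2, Coq6 and Coq7 were Yars2, Itpk1 and Apoo. Among the members themselves Coq7 and Coq10a had the highest r (0.985), and Coq6 and Coq10b the lowest (0.267).

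Of the 9 other proteins of coenzyme Q synthesis in the table, 4 rose and 2 fell in cold BAT, where 60.2% of all genes tested were called. Hpdl, which acts in making the head group, rose to 31.6 ± 5.36 CPM in cold BAT, against 6.47 ± 1.46 CPM in thermoneutral BAT (2.28 ± 0.17, adjusted p = 5.96e-07). Pptc7, a mitochondrial phosphatase (0.82 ± 0.12), and Stard7, which carries coenzyme Q and phosphatidylcholine (0.45 ± 0.08), also rose in BAT. Fdxr, the reductase that passes electrons through ferredoxin to Coq6, fell by 0.99 on the log2 scale (SE 0.13, adjusted p = 6.31e-05). In iWAT, where 11.5% of all genes were called, 4 rose and none fell, namely Hpdl (1.88 ± 0.39), Stard7 (0.78 ± 0.15), Pptc7 (0.62 ± 0.11) and Coq8b (0.32 ± 0.09). In eWAT Fdxr alone passed, lower in the cold (-0.49 ± 0.11), and in liver Pptc7 alone, higher in the cold (1.55 ± 0.29, adjusted p = 0.0456).

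Coq8a, an atypical kinase of the COQ complex, was looked at after its values had been seen. It had 340, 710, 776, 792 and 880.4 CPM in cold BAT and 2343, 2234, 1701, 1238 and 2289 CPM in thermoneutral BAT. The cold libraries all lay below the thermoneutral ones, cold library 1 lowest, and Coq8a fell by 1.49 on the log2 scale (SE 0.26, adjusted p = 0.00045). In cold liver it had 178, 277, 209, 288 and 685 CPM, against 442, 525, 772, 563 and 736 CPM in thermoneutral liver, where library 5 of the cold group lay within the thermoneutral range (-0.89 ± 0.34, adjusted p = 0.133). Coq8a did not pass in iWAT (0.22 ± 0.29, adjusted p = 0.637) or eWAT (-0.01 ± 0.15, adjusted p = 0.976). The cold effect in BAT differed from that in iWAT by -1.78 ± 0.42 (adjusted p = 0.0025) and from that in eWAT by -1.53 ± 0.42 (adjusted p = 0.00705), and not detectably from that in liver (-0.55 ± 0.42, adjusted p = 0.402).

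**Figure D5:**
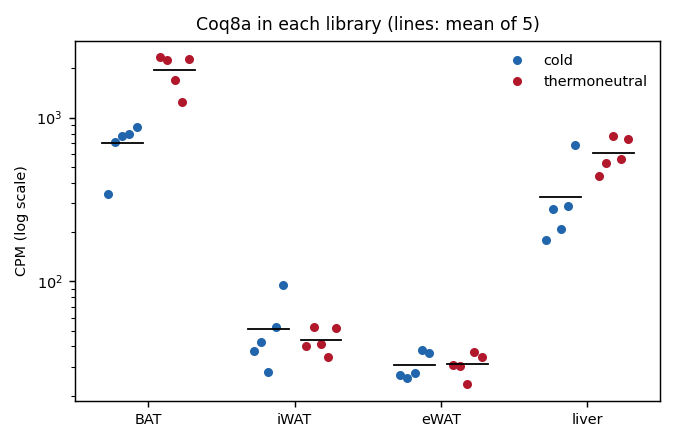
Coq8a in CPM (log axis) in each library, cold left of thermoneutral in each tissue, with lines at the mean of 5. Cold BAT averages 699 and thermoneutral BAT 1961 CPM without overlap, while 1 cold liver library, at 685 CPM, lies among the thermoneutral liver libraries.

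The isoprenoid supply and the branches that share it changed unevenly in BAT. Of 8 genes reported from the mevalonate pathway to geranylgeranyl diphosphate, 6 had a positive log2 fold change in BAT (median 0.23) and 3 passed, where 60.2% of all genes did. Hmgcs1 rose (1.51 ± 0.13), while Ggps1 (-0.42 ± 0.06) and Acat2 (-0.43 ± 0.15) fell. Of 4 enzymes reported that draw on the same isoprenoids, 2 rose and 2 fell in BAT. Cox10, which makes heme O (1.05 ± 0.08), and Nus1, of dolichol synthesis (0.84 ± 0.08), rose in BAT. Fdft1, the squalene synthase at the entry to sterols, had a log2 fold change of -2.31 ± 0.37 there. Nus1 and Cox10 rose in iWAT also (0.81 and 0.73), and Fdft1 fell there (-0.95), where 11.5% of all genes were called. In eWAT Nus1 rose (0.52 ± 0.07) and the supply genes Idi1 (-0.73 ± 0.12) and Mvk (-0.57 ± 0.10) fell.

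Of 15 enzymes that reduce or oxidise coenzyme Q outside complex I, 6 rose and 6 fell in cold BAT, against 30.2% of all genes higher and 30.0% lower. Etfdh, which passes electrons from fatty acid oxidation to coenzyme Q, rose to 1016 ± 121 CPM in cold BAT, against 406 ± 53.1 CPM in thermoneutral BAT (1.32 ± 0.11), and Uqcrfs1, the Rieske protein of complex III, rose by 0.68 ± 0.07. Sqor, the sulfide oxidoreductase (-1.78 ± 0.10), and Dhodh, of pyrimidine synthesis (-0.81 ± 0.09), fell. In iWAT 6 rose and none fell, against 7.20% and 4.29% of all genes, led by Prodh, proline dehydrogenase (1.78 ± 0.25), Etfdh (1.54 ± 0.23), Uqcrfs1 (1.12 ± 0.22) and the complex II subunit gene Sdhd (0.87 ± 0.22). Aifm2, which reduces coenzyme Q outside mitochondria, was the called gene in eWAT (0.71 ± 0.12) and in liver (0.99 ± 0.21, adjusted p = 0.0468). Hpd, of tyrosine breakdown, rose in BAT (2.18 ± 0.27) to 6.53 ± 2.40 CPM in the cold, against 1.45 ± 0.370 CPM at thermoneutrality. It did not pass in iWAT (-0.07 ± 0.52, adjusted p = 0.936), eWAT (-1.68 ± 1.38, adjusted p = 0.602) or liver (1.0003 ± 0.28, adjusted p = 0.0692).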

How the data were processed

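RNA sequencing of 40 libraries was deposited as 1 table of expected counts per gene symbol, which were whole numbers and summed to between 46508261 and 86681722 per library. The tools STAR 2.7.8a, RSEM 1.3.0, FastQC and DESeq and the builds GRCm38 and GRCm39 are named, with no role or order, per the submitters' processing notes, and the libraries were made without strand information, per the labels' protocols. Lines with the same symbol were summed (78 symbols, no member among them). Each sum was divided by the square root of the number of lines, because the join had repeated them.

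Cold and thermoneutral libraries were compared within each tissue with the robust quasi-likelihood test of edgeR 4.0.16 (R 4.3.3), after a filter at a minimum count of 10 and total of 15, TMM scaling and Benjamini-Hochberg adjustment over all genes tested (threshold 0.05). Differences between tissues were contrasts of 1 model of all 40 libraries. Levels are CPM on scaled library sizes, and groups follow the labels. Alternatives were DESeq2 1.42.0, limma 3.58.1 (voom), library totals, RLE, no filter, mitochondrial genes removed, marker covariates, a replicate block and leaving out each library. Tables and figures used Python 3.11.15 with pandas 2.3.3, numpy 2.4.6 and matplotlib 3.10.9.

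The members and lists were chosen with earlier results of these data known. All members are named, and of each companion list in each tissue the called genes of smallest p, at most 4, apart from genes whose results are not reported here, and for each member the 2 genes of most similar pattern. The labels do not say that libraries came from separate mice, so p-values measure the spread between libraries, which may be technical. Whether replicate numbers pair libraries was not settled, and the main fits did not use them. Correlations of same-numbered deviations were -0.768 to 0.358 between exposures and -0.11 to 0.492 between tissues. In every pair of groups the lowest of the 5 was 0.0508 or less. These were not compared with libraries of different numbers. In Pdss1 and Coq10b, and in no other member, thermoneutral library 5 was the lowest of its group in every tissue. Summed muscle markers were highest in thermoneutral library 3 and cold library 5 in both BAT and iWAT, and not in eWAT or liver. Without the block, the model of all 40 libraries treated same-numbered libraries as independent. Protein sequences were not analysed here.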

Additional observations from a re-analysis of the deposited data

Results flagged for a closer look

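In 7 of 80 sets of 5 libraries, 1 for each gene and group, a single library stood apart from the other 4 by Dixon's criterion, which chance meets in about 1 in 20 sets. Cold liver library 3 was the highest of its group in Pdss2 (15.79 CPM, next 13.41) and the lowest in Coq6 (9.96 CPM, next 14.26), and it is the library with 21.9% mitochondrial counts, whose part in these values was not tested. Cold liver library 5 was the lowest in Coq10b (24.41 CPM, next 58.85). Thermoneutral library 5 was the lowest in Coq3 both in BAT (22.37 CPM, next 29.01) and in iWAT (8.387 CPM, next 12.27). Cold BAT library 1 was the lowest in Coq5 (81.51 CPM, next 95.21). Thermoneutral iWAT library 3 was the highest in Coq10a (28.19 CPM, next 17.88) and is the library of highest muscle markers.

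The cold effect differed between tissues in 13 tests of the difference itself, given here as differences of log2 fold changes. For BAT against iWAT they were Coq2 (-0.3867), Coq6 (-0.8077) and Coq9 (-1.038). For BAT against eWAT they were Pdss1 (1.748), Pdss2 (0.4483), Coq3 (0.8924), Coq6 (-0.4875), Coq9 (-0.709) and Coq10b (0.9979). For BAT against liver they were Pdss1 (1.262), Pdss2 (0.5908), Coq3 (0.9826) and Coq10b (0.9284).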

How the results depend on the processing

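The numbers of members called in BAT stayed within 1.5 times the reported 8 under every alternative run (7 to 9 without 1 library). In iWAT, where 5 members and 1926 genes were called, the counts without 1 library ran from 3 to 6 and from 961 to 2652. The model of all 40 libraries called 8 members there, with 1967 of all genes higher and 920 lower. The lymphocyte covariate fit called 2 members, with 761 of all genes higher and 1006 lower. DESeq2 called 3352 genes in iWAT and no filter left 1217. Fits added after the data had been seen gave 0 members and 63 genes with the adipocyte covariate, and 3 members and 719 genes without cold library 5 and thermoneutral library 3. In eWAT, with 1 member and 722 genes, DESeq2 called 4 and 2150, no filter left 372 genes, and leaving out 1 library gave 0 to 1 and 293 to 519. In liver, with 0 members and 240 genes, DESeq2 called 1 and 1644, the model of all 40 libraries 3 and 2562, limma-voom 1 gene, library totals 16 genes, and the added fit without cold libraries 4 and 5 called 4 and 1861. Leaving out 1 liver library gave 0 to 5 members and 0 to 2384 genes, the highest values without cold library 5. Between iWAT and eWAT the difference in cold effect was called in 33 genes, 146 by DESeq2, 18 under library totals, 13 without a filter and 9 to 173 without 1 library. In thermoneutral iWAT against eWAT 5 members became 2 under library totals, 3 without a filter and 2 to 8 without 1 library. The cause of these shifts was not tested.

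Pairing by number was not established. With the replicate block 8 members were called in BAT (8609 genes), 0 in iWAT (108 genes), 0 in eWAT (22 genes) and 0 in liver (5 genes). In the differences of BAT from iWAT, eWAT and liver 4, 6 and 4 members were called, with 4019, 4899 and 4951 genes in all. Between iWAT and eWAT 0 members and 28 genes were called. Coq10b between BAT and iWAT was among the members called (0.75, adjusted p = 0.0201).

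Directions turned mostly for small values in the cold effects, but also for larger ones between tissues at thermoneutrality under library totals. Under library totals they turned for Coq2 in iWAT (-0.049), for Pdss2 (-0.17), Coq2 (-0.16), Coq5 (-0.032) and Coq9 (-0.018) in liver, for Coq2 between iWAT and eWAT effects (-4.3e-05), and at thermoneutrality for Coq2 in BAT against iWAT (-0.30) and for Coq2 (-0.020) and Coq10b (-0.17) in BAT against eWAT. In liver against iWAT they turned for Pdss1 (-0.95), Pdss2 (-0.059), Coq2 (-1.07), Coq3 (-0.57), Coq5 (-0.79), Coq7 (-0.74), Coq9 (-0.20) and Coq10a (-0.53), and in liver against eWAT for Pdss1 (-1.26), Coq2 (-0.79), Coq3 (-0.33), Coq5 (-0.68), Coq6 (-1.07), Coq7 (-0.61) and Coq10a (-0.038). The adipocyte covariate turned Pdss2 (-0.16), Coq2 (-0.27) and Coq6 (-0.12) in iWAT. Without a filter Pdss2 (-0.012) and Coq2 (-0.0059) in liver and Pdss1 in liver against eWAT (-0.021) turned, in the model of all 40 libraries Pdss2 (-0.081) and Coq2 (-0.074) in liver, by DESeq2 Coq7 between BAT and liver effects (-0.0031) and Pdss1 in liver against eWAT (-0.032), and without mitochondrial genes Coq10b in iWAT against eWAT (0.036) and Coq6 in liver against iWAT (0.011). Leaving out 1 library gave ranges across 0 for Coq2 (-0.11 to 0.017) and Coq6 (-0.093 to 0.015) in eWAT, for Pdss2 (-0.064 to 0.048), Coq2 (-0.025 to 0.042) and Coq6 (-0.11 to 0.018) in liver, for Coq7 between BAT and liver effects (-0.075 to 0.14), for Coq10b (-0.11 to 0.15) and Pdss1 (-0.30 to 0.0035) in iWAT against eWAT, and for Pdss1 in liver against eWAT (-0.10 to 0.20).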
